A study of Mus musculus with 24 samples.

Results

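The 5 reference miRNAs are mmu-miR-103-3p, mmu-miR-107-3p, mmu-miR-191-5p, mmu-miR-425-5p and mmu-miR-186-5p, miRNAs that are often used to normalise qPCR in blood. They were chosen by name, with their levels in these libraries already known, from a table of 1966 mature miRNAs. All 5 were among the 252 miRNAs that reached 10 CPM (counts per 1000000 miRNA counts of the library) in at least 12 of the 24 libraries. The study asked how surgical trauma changes the cargo of circulating extracellular vesicles (EVs), membrane-bound particles that cells release. Small RNA was sequenced from serum EVs of wild-type C57BL/6 mice aged 14 to 16 weeks, with 1 library per mouse and 6 mice in each of 4 groups. S6h, S24h and S72h mice had their tibia fractured in open surgery and pinned, under isoflurane and buprenorphine, and were sampled at 6, 24 and 72 h. Analgesia was given daily in the S24h and S72h groups. The Control group received saline and belonged to the 6 h set of animals. The controls of the 24 and 72 h set were not analysed here. For S24h and S72h against Control, the time after surgery and the set of animals therefore cannot be told apart. The study reported that its control groups did not differ statistically, and for that reason kept only the set called Control. That comparison was not repeated here. No group received anaesthesia without surgery, which the study names as a limitation. Surgery, anaesthesia and buprenorphine thus cannot be told apart in any comparison with Control. EVs were precipitated from serum, and such a preparation has no single cell of origin. In it, a change of the amount of one miRNA and a change of the amount of the other RNAs cannot be told apart.

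A miRNA is a short RNA that guides Argonaute proteins to messenger RNAs. Pairing runs mainly through bases 2 to 8 of the mature strand, the seed. In serum many EVs come from blood cells and platelets, and there is no ribosomal or housekeeping transcript to normalise to. A reference miRNA is therefore assumed to be present at a constant share of the RNA, and every qPCR ratio inherits any shift of that reference. In the study miR-103-3p served as the housekeeping miRNA for qPCR. It was picked after the RefFinder tool had compared the expression stability of several miRNAs. The study reported a similar pattern of change by sequencing and by qPCR for the miRNAs it assayed.

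The mature sequences are given from RefSeq (GRCm38.p6), 5′ to 3′, with the seed in capitals, because the near identity of the first pair bears on how its reads can be counted.
mmu-miR-103-3p: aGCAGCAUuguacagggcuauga
mmu-miR-107-3p: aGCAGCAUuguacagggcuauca
mmu-miR-191-5p: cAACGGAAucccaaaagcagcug
mmu-miR-425-5p: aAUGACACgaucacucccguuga
mmu-miR-186-5p: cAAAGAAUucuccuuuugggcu
The 5 miRNAs carried 4 different seeds. miR-103-3p and miR-107-3p shared the seed GCAGCAU, which no other of the 1679 mature mouse miRNAs in the RefSeq table had. They differed by 1 substitution, G22C, counted from the 5′ end of miR-103-3p, and 22 of 23 bases were identical. The authors counted reads of 20 to 24 bases, and a read of either miRNA that ends before base 22 holds only the 21 shared bases. How such reads were assigned was not tested. The seed of miR-425-5p, AUGACAC, was shared with miR-489-3p, and the seeds of miR-191-5p and miR-186-5p were found in no other mature miRNA.

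The hairpins lie in 2 kinds of host gene in GRCm38 (Gencode M21). miR-103-3p is encoded at 2 loci, at chr2:131288103-131288125 in Mir103-2 and at chr11:35782447-35782469 in Mir103-1, both on the + strand. These hairpins lie in introns of Pank2 and Pank3, and that of miR-107-3p (chr19:34820700-34820722, − strand) lies in an intron of Pank1. The 3 hosts encode pantothenate kinases, the first enzymes of coenzyme A synthesis. miR-186-5p (chr3:157544285-157544306, + strand) lies in an intron of Zranb2, which encodes a splicing factor. miR-191-5p (chr9:108568325-108568347) and miR-425-5p (chr9:108568789-108568811) lie on the + strand in an exon of the lincRNA gene 4833445I07Rik. The Mir191 and Mir425 hairpins are 384 bases apart. The annotation also places Gm24083 on the opposite strand of Mir191.

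The libraries were shallow, with 63956 to 471801 miRNA counts in total and group medians of 117578 in Control, 177468 in S6h, 75030 in S24h and 94427.5 in S72h. Taking 3 counts as the limit of a count of 0, a miRNA without counts could be at up to 46.9 CPM where the total was lowest. Intervals and limits cover counting error only, because the reads come from 22 PCR cycles and molecules were not told apart. Within S72h, 2 libraries stood apart. The liver miRNA miR-122-5p made up 29.8% of the counts of S72h replicate 4. The skeletal muscle miRNA miR-1a-3p made up 19.0% of the counts of S72h replicate 1. Such libraries were found in other groups too. miR-122-5p made up 16.0, 15.7 and 12.7% in Control replicates 1, 4 and 6, and miR-1a-3p 21.8 and 23.0% in S6h replicates 2 and 4. All 16 listed markers of red cells, platelets, leukocytes, skeletal muscle and liver were above 0 in each group.

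miR-191-5p was the most abundant of the 5, with 3.99% of all counts and a mean of 44376 CPM over the 24 libraries, the 6th highest of the table. It was followed by miR-186-5p with 5207 CPM, miR-425-5p with 2615 CPM, miR-103-3p with 2161 CPM and miR-107-3p with 223 CPM. These levels are shares of counts of mature strands of 22 or 23 bases. miR-191-5p exceeded miR-186-5p in 24 of 24 libraries, and miR-103-3p exceeded miR-107-3p in 24 of 24. miR-186-5p exceeded miR-425-5p in 23 of 24 libraries. The order of miR-425-5p and miR-103-3p was not stable: miR-425-5p was higher in all 6 Control libraries, in 5 of 6 in S6h, in 3 of 6 in S24h and in 4 of 6 in S72h.

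miR-103-3p had a lowest, median and highest level of 946, 1572 and 2440 CPM in Control. The same values were 788, 1740 and 2376 CPM in S6h, 1849, 2642 and 3160 CPM in S24h, and 1775, 2818 and 3884 CPM in S72h. Control and S6h covered almost the same range, while 4 of 6 S24h libraries and 3 of 6 S72h libraries lay above the highest Control library. The means were 1584 ± 581 CPM in Control, 1627 ± 555 in S6h, 2608 ± 463 in S24h and 2824 ± 869 in S72h (SD, n = 6 each). Each pair of groups overlapped. miR-103-3p is also known for its targeting of Dicer and for effects on insulin sensitivity in liver and fat.

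miR-191-5p ran from 12404 over a median of 37169 to 46485 CPM in Control, and from 20290 over 27028 to 46066 CPM in S6h. It ran from 45817 over 56675 to 73591 CPM in S24h, and from 31294 over 62872 to 72256 CPM in S72h. In S24h the lowest library lay just under the highest Control library, so that the 2 groups overlapped by 1 library on each side. The lowest Control and the lowest S72h library were each replicate 4, with miR-122-5p at 15.7 and 29.8% of their counts. The means were 33585 ± 12998 CPM in Control, 28387 ± 9343 in S6h, 56558 ± 10002 in S24h and 58976 ± 14881 in S72h (SD, n = 6 each). miR-191-5p is abundant in blood cells and platelets.

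miR-186-5p was at 2935, 4195 and 5323 CPM (lowest, median, highest) in Control and at 2115, 3359 and 5541 CPM in S6h. It was at 4691, 5896 and 6887 CPM in S24h and at 4493, 7530 and 8525 CPM in S72h. All S72h libraries except replicate 4 were above every Control library. The means were 4247 ± 893, 3592 ± 1145, 5888 ± 852 and 7099 ± 1437 CPM in Control, S6h, S24h and S72h (SD, n = 6 each).

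miR-425-5p had the flattest course of the 5. Its lowest, median and highest levels were 1043, 2623 and 3205 CPM in Control, 1483, 2149 and 3888 CPM in S6h, 1580, 2368 and 3286 CPM in S24h, and 1903, 3019 and 4256 CPM in S72h. The 4 ranges lay largely on top of each other. The means were 2353 ± 814, 2489 ± 998, 2480 ± 628 and 3137 ± 859 CPM (SD, n = 6 each).

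miR-107-3p was the least abundant and the most uneven. It had 21 to 143 counts in the Control libraries, which is 220 to 543 CPM with a median of 287 CPM. It had 6 to 97 counts in S6h, or 58.5 to 459 CPM with a median of 188 CPM. In S24h it had 0 counts in replicates 1, 4 and 5, which allows up to 39.3, 45.0 and 40.7 CPM there, but 136, 577 and 306 CPM in replicates 2, 3 and 6. In S72h it ranged from 1 count in replicate 5 to 48 counts in replicate 6, or from 15.4 to 423 CPM with a median of 142 CPM. The S24h libraries thus ran from no counts to a level above every Control library in CPM. On TMM-scaled CPM Control replicate 1 was the highest of the 24, with 626 against 508 in S24h replicate 3.

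**Figure D1:**
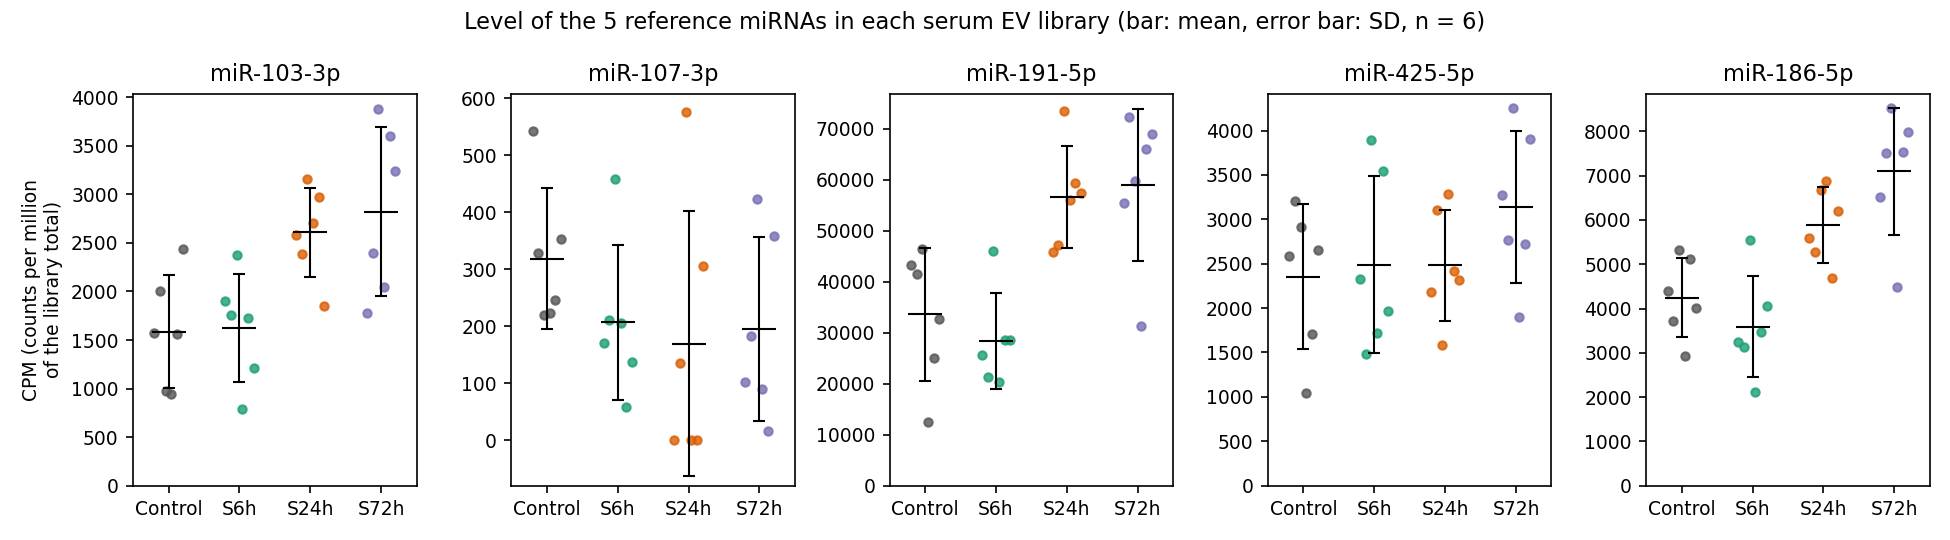
Level of each reference miRNA in CPM on a linear axis, 1 panel per miRNA; points are libraries (mice) ordered by replicate number, horizontal bars are group means and error bars are SD (n = 6). miR-103-3p, miR-191-5p and miR-186-5p sit higher in S24h and S72h than in Control and S6h with overlapping ranges, miR-425-5p has means of 2353 to 2489 CPM until S72h, and 3 S24h libraries of miR-107-3p lie at 0.

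Changes between groups were estimated for all 252 tested miRNAs with edgeR's quasi-likelihood model on counts scaled by TMM, a trimmed mean of the ratios between libraries. To be called, a miRNA needed both a fold change of 1.5 or more and a p below 0.05 after Benjamini-Hochberg adjustment over the 252. Since the members were chosen with these values known, their changes are a description without a test. At 6 h none of the 252 was called (0%; 9 had an unadjusted p under 0.05, and DESeq2 called 0), nor were any of the 5. The log2 fold changes at 6 h were 0.08 ± 0.27 for miR-103-3p, 0.12 ± 0.28 for miR-425-5p, −0.20 ± 0.28 for miR-191-5p, −0.20 ± 0.23 for miR-186-5p and −0.60 ± 0.86 for miR-107-3p (estimate ± SE). Each lay within 1 SE of 0. Of the comparisons with Control, this is the one made within 1 set of animals.

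At 24 h 11.9% of the tested miRNAs, or 30, were called, and 0 of the 5 members. The 30 became 20 to 42 when 1 library was left out and 50 with DESeq2. Against Control, log2 fold changes were 0.59 ± 0.28 for miR-191-5p, 0.58 ± 0.27 for miR-103-3p, 0.31 ± 0.23 for miR-186-5p, −0.07 ± 0.29 for miR-425-5p and −1.12 ± 0.87 for miR-107-3p. The median of all tested miRNAs stood at −0.21 on this scale and at −0.03 when column totals were used. Relative to that median, the TMM estimates were 0.80, 0.79, 0.52, 0.14 and −0.91 in the same order. Under 10 settings of test, scaling, filter and libraries the log2 fold change of miR-191-5p ranged from 0.59 to 0.79, and it passed the call rule in 3 of them: DESeq2, a filter at a mean of 100 CPM, and TMM without miR-1a-3p and miR-122-5p. That of miR-425-5p changed sign among the 10 settings, between −0.07 and 0.11.

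At 72 h 3.57% of the tested miRNAs, or 9, were called, but 1 to 14 when 1 library was left out and 21 with DESeq2. The log2 fold change was 0.89 ± 0.27 for miR-103-3p, 0.85 ± 0.29 for miR-191-5p, 0.79 ± 0.23 for miR-186-5p, 0.47 ± 0.29 for miR-425-5p and −0.75 ± 0.87 for miR-107-3p. These are folds of 1.85, 1.80, 1.73, 1.39 and 0.593. Of the 5, only miR-186-5p, the one with the smallest SE, passed the call rule, and nothing is read from that. miR-103-3p and miR-191-5p each passed it in 3 of 10 settings, DESeq2 among them. The call of miR-186-5p stood in 5 of the 10 settings and in 8 of the 24 fits that left out 1 library, and it was lost without S72h replicates 1 and 4, where its log2 fold change was 0.83. Without these 2 libraries the mean level at 72 h was 3280 ± 644 CPM for miR-103-3p, 66770 ± 5347 for miR-191-5p, 7894 ± 473 for miR-186-5p and 3411 ± 785 for miR-425-5p (SD, n = 4). The difference of mean log2(CPM + 4) from Control was then 1.11, 1.11, 0.92 and 0.60 in that order. With all 6 libraries it was 0.86, 0.89, 0.74 and 0.46. Control replicates 1, 4 and 6, which also held much miR-122-5p, were kept, so that only the S72h side was changed.

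Between 24 and 72 h, within 1 set of animals, 0.397% of the tested miRNAs, or 1, were called and 0 of the 5. The number called was 1 to 5 when 1 library was left out. It was 4 with DESeq2, 10 without a filter and 0 with the 2 groups alone. All 5 estimates were positive, from 0.26 ± 0.28 for miR-191-5p to 0.54 ± 0.29 for miR-425-5p. In every comparison the 2 groups overlapped in CPM for each of the 5. Groups that did not overlap were seen for 0% of the tested miRNAs at 6 h, 4.76% at 24 h, 1.19% at 72 h and 0% between 24 and 72 h.

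**Figure D2:**
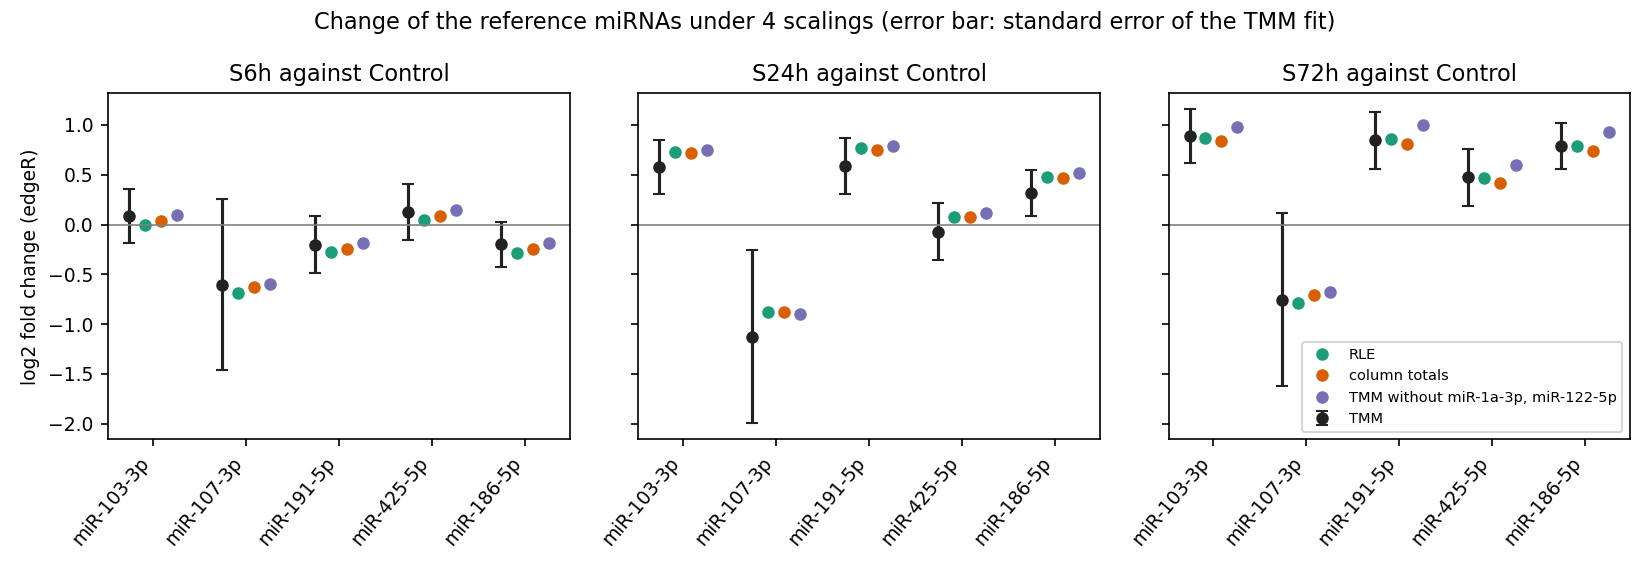
log2 fold change of each reference miRNA against Control at 6, 24 and 72 h from edgeR under 4 scalings; the error bar is the standard error of the TMM fit (24 libraries). miR-103-3p, miR-191-5p and miR-186-5p lie above 0 at 24 and 72 h under each scaling, miR-425-5p straddles 0 at 24 h, and miR-107-3p lies below 0 throughout with a standard error of 0.86 to 0.87.

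The summed levels of cell type markers were set beside those of the members, without a test. The summed level of the 4 red cell miRNAs (miR-451a, both miR-144 arms and miR-486a-5p) ran from 42905 to 87163 CPM in Control, with a median of 62351, and had a median of 46861 CPM in S6h. It ran from 14819 to 52741 CPM in S24h with a median of 25408. In S72h it ran from 16536 to 104023 CPM with a median of 32256. This sum leaves out miR-486b-5p, which averaged 53693 CPM over all libraries, against 18022 CPM for miR-486a-5p. The 4 platelet miRNAs ran from 5444 to 12274 CPM in Control and from 6526 to 11178 CPM in S24h, inside the Control range, with medians of 9666, 12292, 8420 and 8344 CPM in Control, S6h, S24h and S72h. The 4 leukocyte miRNAs ran from 4225 to 9730 CPM in Control, from 6603 to 16899 CPM in S24h and from 2941 to 9676 CPM in S72h, with medians of 7092, 5433, 8272 and 6923 CPM in Control, S6h, S24h and S72h. Medians of the liver miRNA miR-122-5p were 68507 CPM in Control, 13145 in S6h, 18498 in S24h and 8064 in S72h. The 3 muscle markers had medians of 53217 CPM in Control, 117480 in S6h, 33150 in S24h and 27708 in S72h. miR-126a-3p is in both the platelet and the candidate list used later. The platelet sum hides unlike courses: miR-126a-3p averaged 3035 CPM in Control and 5398 CPM in S24h. The other platelet miRNAs, miR-223-3p, miR-199a-3p and miR-199a-5p, had their lowest group mean of log2(CPM + 4) in S24h. The part of these levels in the levels of the reference miRNAs was not tested. When miR-1a-3p and miR-122-5p were taken out of the library totals, the difference of mean log2 level from Control was 0.66 for miR-103-3p, 0.74 for miR-191-5p, 0.36 for miR-186-5p and 0.01 for miR-425-5p at 24 h. At 72 h it was 0.84, 0.87, 0.72 and 0.44.

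A reference must vary little within a group and little between groups, and the 5 members did not combine these in the same way. Spread is here the pooled SD of log2(CPM + 4) within groups, and drift is the highest minus the lowest group mean of log2(CPM + 4). miR-186-5p had a spread of 0.34, the 3rd smallest of the 252 tested miRNAs, but a drift of 1.01, the 78th smallest. miR-103-3p had a spread of 0.48 and a drift of 0.86, ranks 17 and 55. miR-191-5p had a spread of 0.49 and a drift of 1.06, ranks 22 and 82. miR-425-5p had a spread of 0.50 and a drift of 0.46, ranks 25 and 15. On TMM-scaled CPM its drift was 0.57 and its spread 0.46, so that which of them is larger depends on the scaling. miR-107-3p had a spread of 1.98 and a drift of 3.16, ranks 166 and 230.

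Low counts widen both measures, and the medians over all 252 miRNAs were 1.54 for spread and 1.47 for drift. Among the 77 miRNAs whose mean level was 1000 CPM or more the medians were 0.61 and 1.13. There miR-186-5p ranked 3rd in spread and 37th in drift, miR-103-3p 17th and 27th, miR-191-5p 22nd and 38th, and miR-425-5p 25th and 8th. The highest group mean was that of S72h for these 4. The lowest was that of Control for miR-103-3p and miR-425-5p and that of S6h for miR-191-5p and miR-186-5p. With pseudocounts of 1 and 16 CPM the drift of miR-107-3p was 4.16 and 2.19, so its size depends on the pseudocount.

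For comparison, 21 other miRNAs that are in use as references were listed, all of which passed the filter. Their medians were 0.55 for spread and 0.92 for drift. Of these 26 miRNAs, members included, the smallest drifts were 0.23 for miR-30c-5p, 0.27 for let-7g-5p and 0.34 for let-7i-5p, and miR-425-5p came 5th. The largest were 3.16 for miR-107-3p, 2.0 for miR-320-3p and 1.83 for miR-484. miR-30c-5p averaged 10381 ± 1657, 11120 ± 2195, 10714 ± 901 and 9740 ± 2962 CPM in Control, S6h, S24h and S72h (SD, n = 6 each). It is named for its small drift, so no test of it is given. miR-320-3p averaged 7602 ± 2493, 4859 ± 1474, 19457 ± 5701 and 12325 ± 4350 CPM.

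These 21 were tested, since the members were not chosen by them, but their list too was written with earlier results of these data known. At 24 h 6 of 21 were called, 4 higher and 2 lower, against 11.9% of all tested miRNAs. These shares are not of like miRNAs. The 21 averaged 2061 CPM or more, while 77 of the 252 tested reached 1000 CPM. The share called among abundant miRNAs was not determined, so nothing is read from the contrast. miR-320-3p rose by 1.19 on the log2 scale (edgeR, adjusted p = 0.00672), miR-423-3p by 1.18 (edgeR, adjusted p = 0.00731), miR-26a-5p by 1.02 (edgeR, adjusted p = 0.0260) and miR-423-5p by 0.97 (edgeR, adjusted p = 0.0114). miR-93-5p of the miR-17 family fell by 1.43 (edgeR, adjusted p = 0.00657), and miR-16-5p, which is abundant in red cells and is a frequent serum reference, fell by 1.2 (edgeR, adjusted p = 0.00696). At 72 h 3 of 21 were called, against 3.57% of all tested miRNAs, with the same limit. They were miR-26a-5p (1.1), miR-423-3p (1.02) and miR-16-5p (−1.01), each with an adjusted p of 0.0462 in edgeR. None was called at 6 h or between 24 and 72 h, where 3 and 1 had an unadjusted p under 0.05 and DESeq2 called 0 in both. The median log2 fold change of the 21 was 0.17 at 24 h and 0.31 at 72 h, beside −0.21 and −0.06 for all tested miRNAs. The 3 calls at 72 h were 0 to 6 under other settings, and 0 without S72h replicates 1 and 4.

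**Figure D3:**
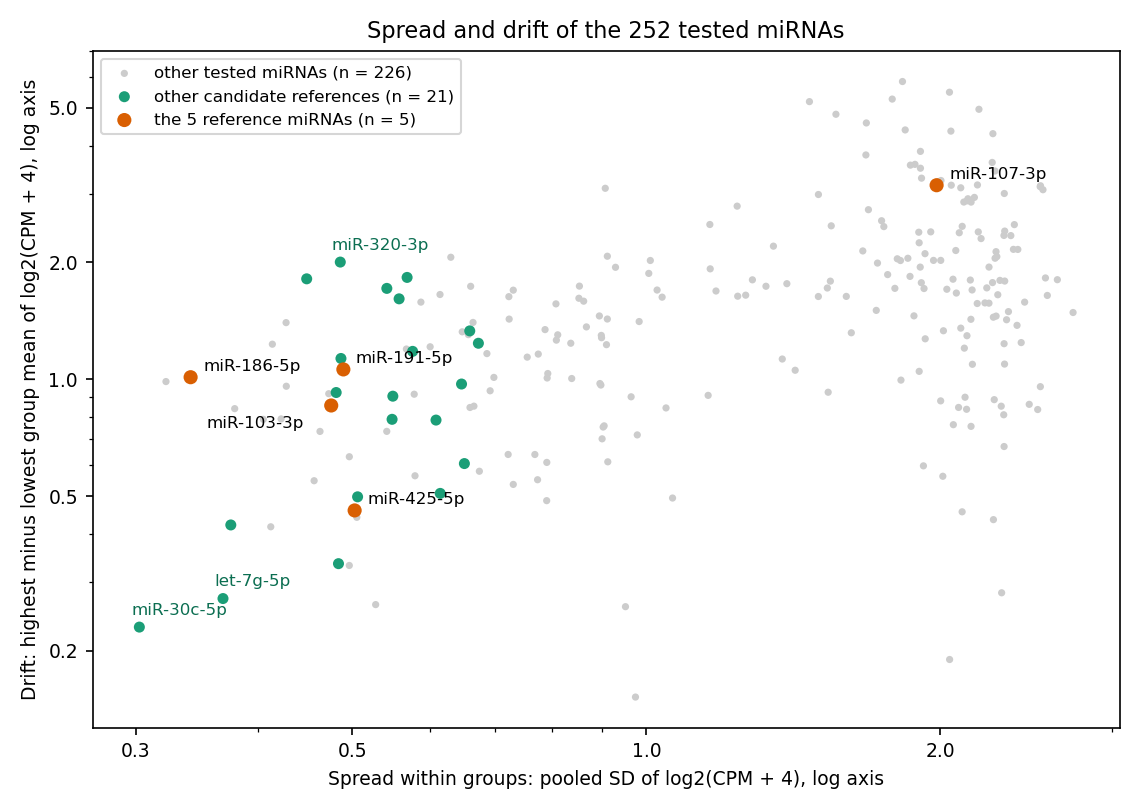
Spread within groups (x) and drift between groups (y) of the 252 tested miRNAs, both in log2 units on logarithmic axes; orange points are the 5 reference miRNAs, green points the 21 other candidates and grey points the rest. miR-186-5p has a small spread of 0.34 with a drift of 1.01, miR-425-5p lies lower at 0.50 and 0.46, miR-30c-5p lies lowest among the candidates, and miR-107-3p lies among the scattered miRNAs at 1.98 and 3.16.

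Ratios between members within a library do not depend on the library total. Over the 24 libraries the log2 ratio of miR-191-5p to miR-186-5p had the smallest SD of the 10 pairs, 0.34, and a drift of 0.37. The SD was 0.43 for miR-103-3p to miR-186-5p and 0.48 for miR-103-3p to miR-191-5p, with drifts of 0.31 and 0.29. The pairs with miR-425-5p had larger drifts, 0.71 with miR-186-5p, 0.70 with miR-103-3p and 0.98 with miR-191-5p. The 4 pairs with miR-107-3p had SDs of 2.04 to 2.18, which depend on the 0.5 count added to its zeros. miR-103-3p, miR-191-5p and miR-186-5p thus kept their proportions to each other between groups better than they kept their CPM, whose drifts were 0.86 to 1.06. This did not hold within Control, where the ratios among them had SDs of 0.57 to 0.72. Relative to the library total, the Control SDs were 0.55, 0.72 and 0.32 for miR-103-3p, miR-191-5p and miR-186-5p.

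miR-191-5p and miR-425-5p are neighbours on 1 lincRNA, yet their proportion differed between groups. miR-425-5p counts were 7.22 ± 1.0% of miR-191-5p counts in Control, 8.71 ± 2.01% in S6h, 4.57 ± 1.55% in S24h and 5.45 ± 1.25% in S72h (SD, n = 6 each). The Control libraries ran from 5.99 to 8.41%, with a median of 7.27%. The S24h libraries ran from 2.15% in replicate 3 to 6.56% in replicate 2, with a median of 4.41%, so that 1 S24h library reached into the Control range. Expressed as a ratio of geometric means, miR-191-5p was 13.9 times miR-425-5p in Control, 11.7 times in S6h, 23.1 times in S24h and 18.7 times in S72h. The S6h libraries ran from 6.92 to 12.4%. This is a description of members chosen by their values.

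For the pair with 1 base between them, miR-107-3p made up 12.6 to 25.6% of the summed miR-103-3p and miR-107-3p counts in Control, with a median of 16.3%. The share was 3.28 to 20.7% in S6h (median 10.4%), 0 to 15.4% in S24h (median 2.69%) and 0.426 to 9.98% in S72h (median 6.25%). The S24h libraries were 3 at 0 and 3 at 5.38, 14.2 and 15.4%. The 3 zeros were 0 of 197, 0 of 180 and 0 of 219 counts, which allow shares of up to 1.52, 1.67 and 1.37% when 3 counts are taken as the limit. The two-sided exact (Clopper-Pearson) 95% intervals of these zeros end higher, at 1.86, 2.03 and 1.67%. The same interval was 12.2 to 19.1% for the S24h library at 15.4% and 2.61 to 9.66% for that at 5.38%. In the Control libraries these intervals ran from a lowest bound of 8.94% to a highest of 29.5%. The sum of both miRNAs averaged 1903 ± 643, 1833 ± 636, 2777 ± 539 and 3019 ± 961 CPM in the 4 groups (SD, n = 6 each), a course like that of miR-103-3p alone.

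**Figure D4:**
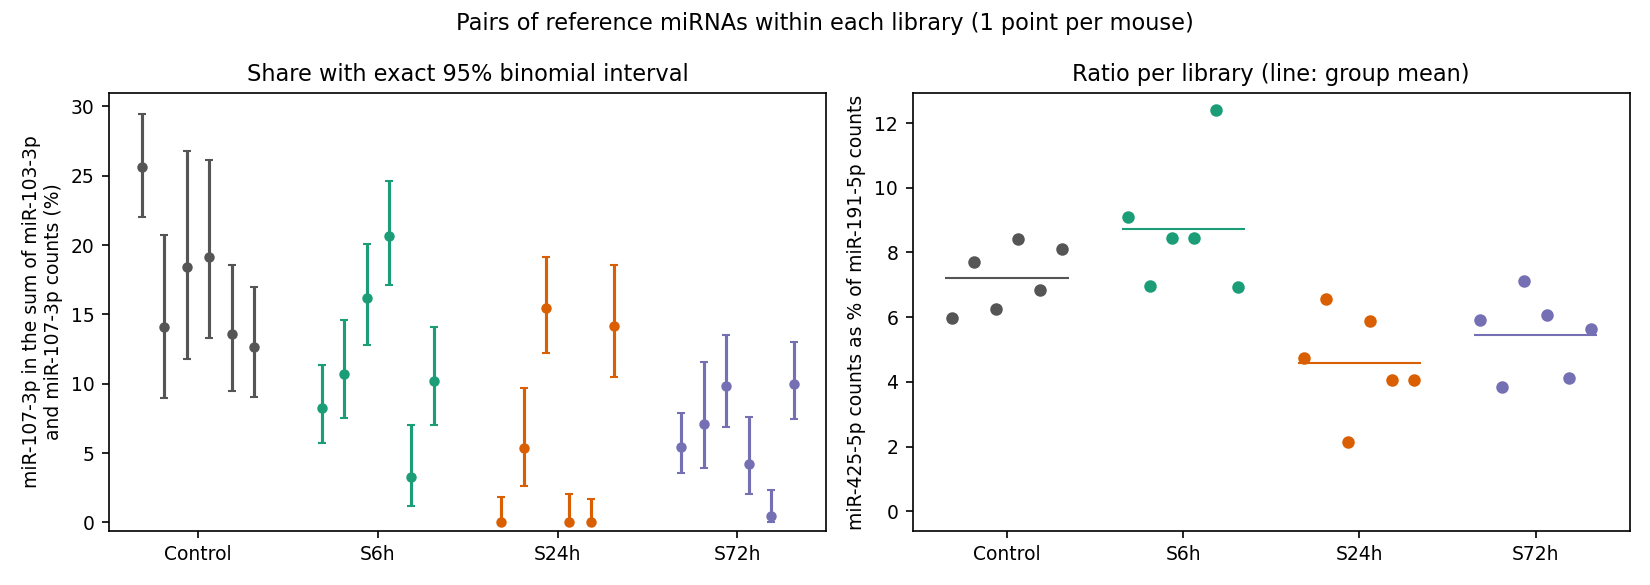
Left, miR-107-3p as a percentage of miR-103-3p plus miR-107-3p counts in each library with its exact 95% binomial interval (counting error only); right, miR-425-5p counts as a percentage of miR-191-5p counts, with lines at group means. Shares of miR-107-3p are above 12% in each Control library, at 0 in 3 S24h libraries and below 10% in each S72h library; miR-425-5p averages 7.22% of miR-191-5p in Control and 4.57% in S24h.

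The opposite arms of the hairpins were low or without counts. miR-103-1-5p, miR-103-2-5p and miR-107-5p had 0 counts in 24 of 24 libraries, and miR-186-3p had 2 counts in 1 Control library. miR-191-3p had 0 to 26 counts per library, with counts in 15 of 24, and miR-425-3p had 0 to 36, with counts in 16 of 24. In S6h replicate 1 miR-425-3p had 32 counts, beside 33 of miR-107-3p. These 2 arms passed the filter and were not chosen by their values, so they were tested. miR-191-3p had log2 fold changes of 0.57, 1.36 and 1.83 at 6, 24 and 72 h (edgeR, adjusted p = 0.991, 0.558 and 0.515), and miR-425-3p had 1.31, −0.84 and 1.69 (edgeR, adjusted p = 0.991, 0.737 and 0.521). Neither was called, and the SE of the miR-425-3p estimates was 1.26 to 1.32.

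Correlations over the 24 libraries describe which miRNAs moved with each member. They are of log2(TMM-scaled CPM + 4) among the 168 tested miRNAs averaging 100 CPM or more, and the points share their library, its depth and its group. miR-191-5p was most like miR-423-3p (Pearson r = 0.91), miR-221-3p (0.91) and miR-484 (0.90). Once group means were removed, these values were 0.84, 0.83 and 0.87. miR-186-5p was most like miR-191-5p (0.83), miR-221-3p (0.82) and miR-140-3p (0.78), with 0.61, 0.73 and 0.66 within groups. miR-103-3p was most like miR-151-5p (0.84), let-7d-5p (0.72) and miR-669c-5p (0.70), with 0.72, 0.57 and 0.54 within groups. miR-425-5p was most like its neighbour miR-191-5p, with a lower r of 0.56, followed by miR-1981-5p (0.53) and miR-351-5p (0.52), and within groups these were 0.63, 0.54 and 0.45. miR-107-3p was most like miR-224-5p (0.69), miR-100-5p (0.56) and miR-27b-3p (0.56), which were 0.47, 0.45 and 0.30 within groups, and its r with miR-103-3p was −0.29. The profile of miR-191-5p was thus closest to 3 of the candidates with large drifts. That of miR-107-3p did not follow its near twin, but its r includes 3 S24h libraries with 0 counts. The part of these zeros and of read assignment in that r was not tested.

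How much the choice of reference shifts a ratio follows from the reference's own difference between groups. On log2 CPM computed with 0.5 added to each count, miR-103-3p stood 0.04 above Control at 6 h, 0.78 at 24 h and 0.86 at 72 h, so that a ratio to it is 1.03, 1.72 and 1.81 times lower than the library total gives. For miR-191-5p the factors at 24 and 72 h were 1.81 and 1.85, for miR-186-5p 1.40 and 1.67, and for miR-425-5p 1.09 and 1.38. The geometric mean of the 5 stood at −0.10 at 24 h and 0.36 at 72 h. It includes the zeros of miR-107-3p, so that the value at 24 h depends on the added 0.5 count. Without miR-107-3p the geometric mean of the other 4 stood at 0.56 and 0.74. Its SD between libraries was 0.45 in Control, 0.45 in S6h, 0.12 in S24h and 0.36 in S72h, and that of miR-186-5p alone was 0.32, 0.46, 0.21 and 0.33. The mean of 4 had the smaller SD in S6h and S24h and the larger in Control and S72h.

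The effect was followed in 3 miRNAs that the study assayed by qPCR. They were selected on differences in these same libraries, so their changes are given without a test. miR-143-3p, abundant in smooth muscle, differed by −2.63 on the log2 scale between S24h and Control relative to the library total. It differed by −3.41 relative to miR-103-3p, −3.49 relative to miR-191-5p, −3.12 relative to miR-186-5p and −2.76 relative to miR-425-5p. The sign was the same with these 4 references. No value relative to miR-107-3p is given at 24 h, because it had 0 counts in 3 of 6 S24h libraries.

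miR-375-3p, a miRNA of endocrine and gut epithelial cells, differed by −0.91 at 24 h relative to the library total and by −1.69, −1.77, −1.40 and −1.04 relative to miR-103-3p, miR-191-5p, miR-186-5p and miR-425-5p. Its SD between Control libraries was 1.19 relative to miR-103-3p. miR-1a-3p, a miRNA of striated muscle, differed by −1.01 relative to the library total and by −1.80, −1.87, −1.50 and −1.14 relative to the same 4. At 24 h the 4 references other than miR-107-3p differed among themselves by 0.73 on the log2 scale, and at 72 h by 0.43. miR-499-5p and miR-541-5p were also assayed, but had 0 counts in 4 and 6 of the 6 S24h libraries, and no ratio is given for them at 24 h.

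**Figure D5:**
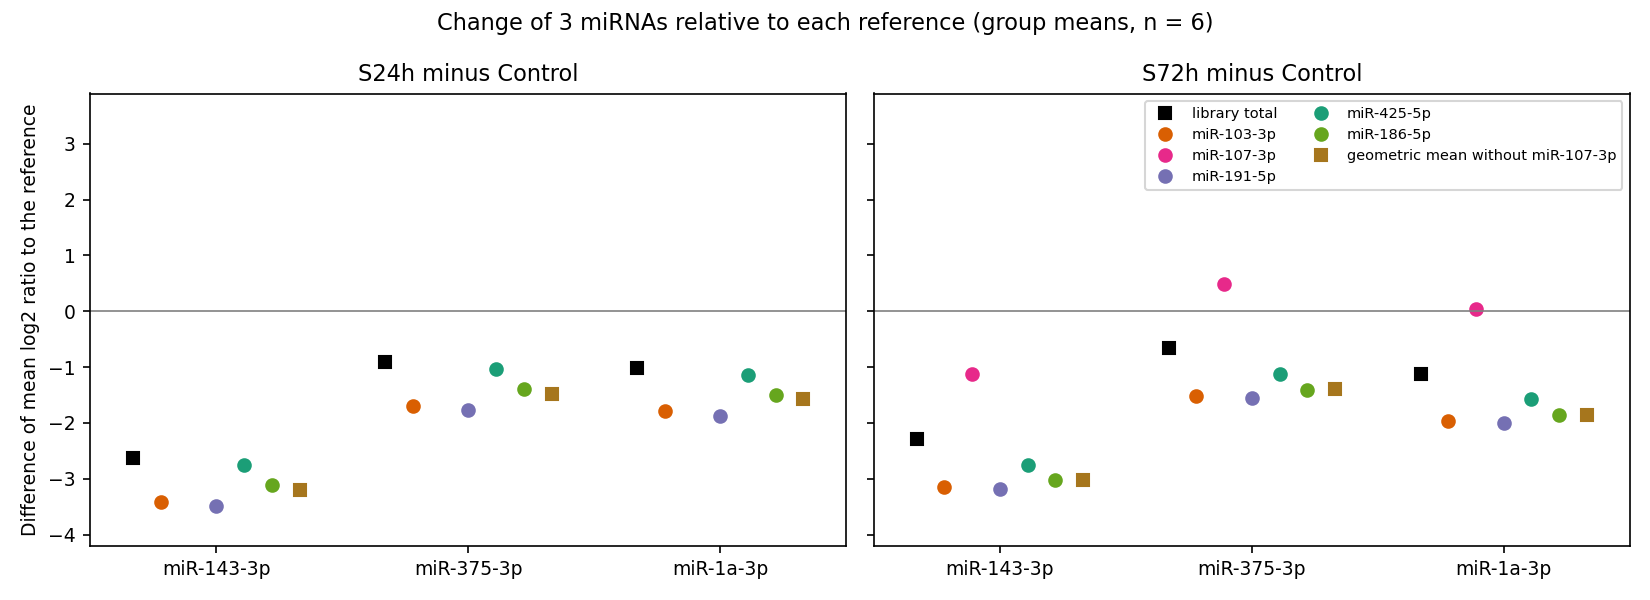
Difference of the mean log2 ratio between S24h (left) or S72h (right) and Control for miR-1a-3p, miR-143-3p and miR-375-3p, relative to the library total, each reference miRNA and the geometric mean of 4 members (6 libraries per group; points are differences of group means without error bars). Values relative to miR-103-3p, miR-191-5p, miR-186-5p and miR-425-5p span 0.73 at 24 h and lie below those of the library total; miR-107-3p, with 0 counts in 3 S24h libraries, is shown at 72 h only.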

How the data were processed

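Small RNA of serum EVs was analysed in 24 libraries, each from a separate mouse. The deposited values are whole-number counts per mature miRNA. The authors trimmed reads with cutadapt, aligned them to GRCm38 with Bowtie, kept reads of 20 to 24 bases and counted them with featureCounts on miRBase 22. Members and lists were chosen with earlier results of these data known. All 24 count columns were matched to labels, and no libraries were identical. CPM were computed from column totals (63956 to 471801), and log2 levels used a pseudocount of 4 CPM. edgeR 4.0.16 (R 4.3.3) fitted 1 quasi-likelihood model with TMM to the 4 groups for the 252 miRNAs with at least 10 CPM in at least 12 libraries. Adjusted p-values are Benjamini-Hochberg over 252. Ratios between miRNAs used counts with 0.5 added. The study used DESeq2, which is an alternative here (1.42.0), beside other scalings, filters, samples and a replicate block. In simulated S24h against Control data, in which 326 miRNAs passed the filter, 84 of 99 miRNAs changed by 2 on the log2 scale were called, with 6 unchanged ones. The miRNAs named are the 5 members, other arms, 21 listed candidates, the study's qPCR assays, the 3 miRNAs most alike to each member and the extremes of drift. Markers shown beside them are from fixed lists.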

Additional observations from a re-analysis of the deposited data

Results flagged for a closer look

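In each group of 6 libraries the gap between an extreme library and its nearest neighbour was compared with the whole range, for the levels of the 5 members, the share of miR-107-3p, miR-425-5p as a percentage of miR-191-5p, and the 5 marker sums. Of 48 groups 4 exceeded Dixon's 95% critical value, and chance gives about 2.4, or 1 in 20. In S6h, replicate 3 stood above the others in miR-191-5p with 46066 CPM, a gap of 0.677 of the range. In S72h, replicate 4 had 298410 CPM of the liver marker miR-122-5p (0.971), replicate 1 had 237232 CPM of skeletal muscle markers (0.809) and replicate 6 had 104023 CPM of red cell markers (0.653). No cause was tested.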

How the results depend on the processing

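With the mean of at least 100 CPM as the filter, with DESeq2 and without miR-1a-3p and miR-122-5p (the last chosen after seeing the data), 1 member was called at 24 h (miR-191-5p) and 3 at 72 h (miR-103-3p, miR-191-5p and miR-186-5p). With column totals, no filter, only the 2 groups compared, the replicate block or leaving out S72h mice 1 and 4 (chosen after seeing the data), 0 were called at 72 h. Other candidates called at 72 h were 0 with column totals, the 2 groups, the block and without these mice, 1 without a filter, 5 with the 100 CPM filter and 6 without miR-1a-3p and miR-122-5p. All tested miRNAs called at 72 h were 21 with DESeq2, 2 with column totals, 18 at 100 CPM, 0 with the 2 groups, 1 with the replicate block, 23 without miR-1a-3p and miR-122-5p and 3 without these mice. DESeq2 called 50 at 24 h and 4 between 24 and 72 h. Without a filter 2 were called at 6 h and 10 between 24 and 72 h, where the 2 groups alone gave 0. Leaving out those 2 mice gave 1 at 6 h. The cause was not tested.

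Leaving out 1 library at a time, 20 to 42 miRNAs were called at 24 h, 1 to 14 at 72 h and 1 to 5 between 24 and 72 h. Candidates called were 5 to 8 at 24 h and 0 to 4 at 72 h, and members 0 to 2 at 72 h. The lowest count at 24 h, 20, came without Control replicate 5. At 72 h the call of miR-186-5p was kept without Control replicate 3, S6h replicates 3 or 4, S24h replicates 2, 5 or 6 and S72h replicates 4 or 6, and lost without any other library. The replicate numbers only name the mice: of 36 same-numbered pairs 6 had deviations correlated above 0.1 (median 0.0074). Of the single values, 1061 kept within 1 SD of the main value and 15 moved, none of them a call that turned sign. Of the counts of called miRNAs under all settings, 309 were rated the same and 87 as moved. Of the 5 members miR-107-3p had the fewest counts, 0 to 143 per library.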
